A study of Homo sapiens with 8 samples.

Results

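The ADAMTS genes encode secreted zinc metalloproteases that carry thrombospondin repeats and cut proteins of the extracellular matrix. Described here are 10 of them, ADAMTS1, ADAMTS2, ADAMTS4, ADAMTS5, ADAMTS6, ADAMTS7, ADAMTS9, ADAMTS10, ADAMTS12 and ADAMTS14, among 21059 genes of 1 RNA sequencing table. They were taken by gene symbol, and the set was chosen from their measured difference between high and low glucose in these same 8 libraries. That difference is therefore given as a description, with no p-value for any of the 10, and limma calls among them are only counted, beside the share of all genes. The human family has 19 ADAMTS genes, of which 18 have a row in the table, and all 10 described genes have one.

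The RNA came from MDA-MB-157, an established human breast cancer line that is negative for the estrogen receptor (ER). Cells were adapted to low glucose medium, and flasks then received medium without serum that held either 5 mM glucose (low glucose, libraries LG1 to LG4) or 25 mM glucose (high glucose, libraries HG1 to HG4) for 48 hours. The comparison asks which transcripts differ when a breast cancer line is held in a diabetes-like sugar concentration. No library is labelled as an osmotic control, the data come from 1 line, and whether the 4 replicates of a group were separate cultures is not stated, so a p-value measures only the spread between these samples, which may be technical.

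ADAMTS proteases are made as inactive precursors, lose a propeptide to proprotein convertases such as furin, and act outside the cell. They are usually grouped by substrate. One group cuts the large hyaluronan-binding proteoglycans, called hyalectans, such as versican and aggrecan, another removes the amino-terminal propeptide of fibrillar procollagens, a further pair cuts cartilage oligomeric matrix protein (COMP), and ADAMTS10 and ADAMTS6 are tied to fibrillin microfibrils.

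The feature that makes these proteins proteases is the zinc-binding site of the catalytic domain, and its coding stretch was found once in each of the 10 canonical transcripts of GENCODE 44. The 36 bases are printed in the sense of the transcript, 5′ to 3′, to show that the genes whose levels move apart encode the same catalytic residues. Capitals mark the codons of the 3 zinc-binding histidines and of the catalytic glutamate.
ADAMTS1: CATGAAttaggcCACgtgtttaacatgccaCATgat
ADAMTS4: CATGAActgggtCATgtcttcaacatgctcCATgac
ADAMTS5: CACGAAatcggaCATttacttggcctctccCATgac
ADAMTS9: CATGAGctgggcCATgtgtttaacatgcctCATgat
ADAMTS2: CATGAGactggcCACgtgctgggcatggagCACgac
ADAMTS14: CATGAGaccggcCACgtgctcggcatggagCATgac
ADAMTS7: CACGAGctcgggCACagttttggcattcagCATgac
ADAMTS12: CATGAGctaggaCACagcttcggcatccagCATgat
ADAMTS6: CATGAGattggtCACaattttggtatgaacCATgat
ADAMTS10: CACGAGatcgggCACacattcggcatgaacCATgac
Of the 36 bases, ADAMTS9 shares 31 with ADAMTS1, ADAMTS4 shares 27, and the other 7 share 21 to 24. Over whole transcripts, by contrast, ADAMTS1, ADAMTS5, ADAMTS6, ADAMTS10 and ADAMTS12 hold no 31-base word that occurs in another annotated gene, so their reads can be told apart at that length. ADAMTS7 is the exception, with 38.7% of its words shared, 21.8% with the pseudogene ADAMTS7P1, and its values are uncertain to that extent and rested on whole reads in 4 of the 8 libraries. ADAMTS4 shares 8.67% of its words and ADAMTS9 1.92%, the latter with the antisense gene ADAMTS9-AS1.

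For 6 of the 10 genes (ADAMTS2, ADAMTS6, ADAMTS7, ADAMTS10, ADAMTS12 and ADAMTS14) the RefSeq promoter table used here (GRCh38.p14) has an entry whose start matches that of the canonical transcript. Printed are the 250 bases before the start of 3 genes that were lower at high glucose and of ADAMTS6, whose groups overlapped, each on the minus strand and read 5′ to 3′. They lie at chr19:8610716-8610965, chr5:33891991-33892240, chr5:179345462-179345711 and chr5:65481921-65482170. Capitals mark matches, on either strand, to the GC box (GGGCGG), the AP-1 element (TGANTCA), the cyclic AMP response element (TGACGTCA), the E-box (CACGTG) and the TATA box (TATAAA).
ADAMTS10: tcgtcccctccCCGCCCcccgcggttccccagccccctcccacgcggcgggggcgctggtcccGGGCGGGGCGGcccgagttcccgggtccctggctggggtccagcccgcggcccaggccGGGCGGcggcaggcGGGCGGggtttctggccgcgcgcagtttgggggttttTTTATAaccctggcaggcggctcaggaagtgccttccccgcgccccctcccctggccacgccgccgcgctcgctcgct
ADAMTS12: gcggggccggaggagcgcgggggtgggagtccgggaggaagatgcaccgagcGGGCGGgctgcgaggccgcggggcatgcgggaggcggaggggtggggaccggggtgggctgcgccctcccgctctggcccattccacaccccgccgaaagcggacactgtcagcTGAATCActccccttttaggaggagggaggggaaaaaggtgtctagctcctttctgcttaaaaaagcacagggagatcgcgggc
ADAMTS2: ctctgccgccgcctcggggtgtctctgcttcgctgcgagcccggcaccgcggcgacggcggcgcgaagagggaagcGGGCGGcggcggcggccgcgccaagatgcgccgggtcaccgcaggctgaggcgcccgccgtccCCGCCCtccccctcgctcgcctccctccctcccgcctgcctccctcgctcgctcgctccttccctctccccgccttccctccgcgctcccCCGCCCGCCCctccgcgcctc
ADAMTS6: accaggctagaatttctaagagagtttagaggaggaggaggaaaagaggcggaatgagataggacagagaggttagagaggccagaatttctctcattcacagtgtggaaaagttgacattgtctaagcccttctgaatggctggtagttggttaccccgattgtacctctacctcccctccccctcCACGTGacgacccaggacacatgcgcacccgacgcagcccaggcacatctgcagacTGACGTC
Within 300 bases around the start (250 before and 50 after), the GC box was found in 5 of these 6 promoters, and in 45% of 35116 promoters of the same length. The one without it was ADAMTS6, which held 9 CpG pairs against 24 to 47 in the other 5 and a median of 14 over all promoters. ADAMTS6 had 1 cyclic AMP response element, which straddles the start (1.85% of promoters have one), and 1 E-box (7.26%). ADAMTS12 had 1 AP-1 element (7.71%) and ADAMTS10 1 TATA box (11.5%). These matches describe the letters only.

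Values are deposited CPM, reads of a gene scaled to a common library total, after TMM (trimmed mean of M values) scaling by edgeR. The 8 libraries held an estimated 9721649 to 12482542 reads, so that 3 reads were worth 0.212 to 0.267 CPM, and this precision covers counting error only. In a limma comparison over all 21059 genes, 22.0% were called higher and 24.8% lower at high glucose at an adjusted p under 0.05. HG1 stood apart in that it held relatively fewer reads of long transcripts: the Spearman correlation, across genes, of its deviation from the other high glucose libraries with transcript length was -0.65, and 0.248 to 0.466 for HG2 to HG4. Of the 10 genes, 6 had their lowest high glucose value in HG1 (ADAMTS4, ADAMTS5, ADAMTS6, ADAMTS7, ADAMTS9 and ADAMTS12). The label of the line was met by an ESR1 level of at most 0.17 CPM, and all 10 line markers were in the table. CDH1 reached at most 1.41 CPM and KRT19 at most 0.0825 CPM, whereas KRT8, KRT18, ERBB2 and PGR were at 130.8, 233.5, 63.61 and 4.758 CPM on average at low glucose. Of the 10, EPCAM rose (from 4.5 to 6.996 CPM) and 5 fell: VIM (from 4091 to 2967 CPM), KRT8 (to 88.31 CPM), KRT18 (to 170.1 CPM), ERBB2 (to 39.16 CPM) and FN1 (from 3612 to 2537 CPM). The summed level of the 10 line markers was 8052 to 8211 CPM at low and 5642 to 5942 CPM at high glucose. Of 9 markers of immune, endothelial and stromal cells 8 were in the table, with a summed level of 2670 to 2684 CPM at low and 1224 to 1286 CPM at high glucose, of which 1 (PECAM1) rose and 5 fell. LUM, DCN and PDGFRB made up most of it, PTPRC stayed at or under 0.178 CPM, and the part of either marker list in the differences below was not tested. The RNA came from 1 cultured line, so LUM, DCN and PDGFRB describe that culture and do not count stromal cells. Bulk RNA cannot tell a difference in some cells of the line from a difference in all.

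The 10 genes did not move as a group. ADAMTS1 was higher at high glucose in every library, by 4.33-fold, while ADAMTS2, ADAMTS4, ADAMTS7, ADAMTS10, ADAMTS12 and ADAMTS14 were lower in every high glucose library than in every low glucose library, by 1.72 to 3.13-fold. ADAMTS5, ADAMTS6 and ADAMTS9 had overlapping groups. The median log2 difference of the 10 was -0.58, and that of all genes tested was -0.01. In limma 1 of the 10 was called higher (22.0% of all genes) and 6 lower (24.8%). The same 1 and 6 had groups without overlap, which 20.9% of all genes had upwards and 23.6% downwards. Since the genes were selected on this contrast, nothing is read from these counts.

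**Figure D1:**
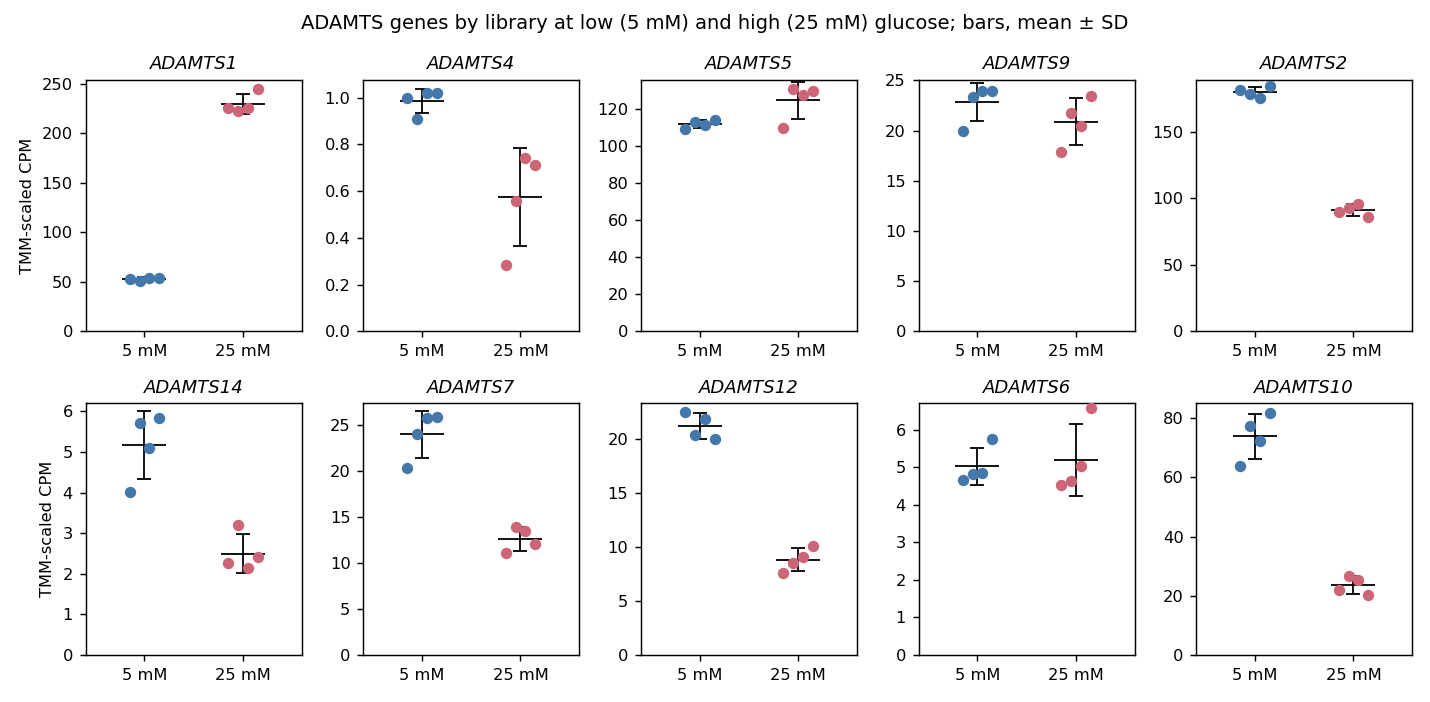
Level of each ADAMTS gene (TMM-scaled CPM, linear axes from 0, a scale of its own for each gene) in the 4 low glucose (5 mM, blue) and 4 high glucose (25 mM, red) libraries, with the mean and SD as black bars. ADAMTS1 lies between 222 and 245 CPM in all 4 high glucose libraries and between 51.0 and 54.1 CPM in the low ones, and ADAMTS5, ADAMTS6 and ADAMTS9 overlap.

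Among the proteases of hyalectans, ADAMTS1 (chr21:28208074-28217728 on GRCh37, minus strand, 9 exons), a secreted protease of versican and aggrecan that also restrains new vessels, had the largest difference of the 10. Its level was 52.76, 51.02, 53.94 and 54.12 CPM in LG1 to LG4 and 225.9, 222.2, 225.6 and 244.5 CPM in HG1 to HG4. All 4 high glucose values lay far above all low glucose values, and HG4 was the highest. The means were 52.96 ± 1.43 and 229.5 ± 10.1 CPM (SD, n = 4), a log2 difference of 2.10 (SE 0.0354) on the log2(CPM + 1) scale. Between 616 and 3200 reads stood behind each value. Of all 21059 genes, 17, ADAMTS1 included, had a rise of this size or more on that log2 scale.

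ADAMTS5 (chr21:28290241-28339407), the main aggrecanase of mouse cartilage, lies next to ADAMTS1 on chromosome 21, on the same strand, with 72.5 kb between them in the annotation. It was at 109.2, 113.0, 111.4 and 114.2 CPM in LG1 to LG4 and at 109.9, 130.9, 127.6 and 129.8 CPM in HG1 to HG4. HG1 lay within the low glucose range and the other 3 high glucose libraries stood above it. The log2 difference was 0.15 (SE 0.0569), and 0.21 without HG1. Whereas ADAMTS1 was at 0.473 ± 0.0151 of the CPM of ADAMTS5 at low glucose, it was at 1.85 ± 0.156 of it at high glucose (SD, n = 4). The neighbors thus changed order, mostly through ADAMTS1. Among coding genes within 500 kb of the pair, CYYR1 is the only other one in the annotation.

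ADAMTS4 (chr1:161154092-161168844), an aggrecanase induced by inflammatory cytokines in cartilage, was the scarcest of the 10. It was at 1, 0.911, 1.02 and 1.02 CPM in LG1 to LG4 and at 0.282, 0.558, 0.742 and 0.711 CPM in HG1 to HG4. The groups did not overlap, but the values rest on 4 to 14 reads, and HG1 held the fewest. The log2 difference was -0.35 (SE 0.0973) with the pseudocount of 1 and -0.76 with 0.1, and -0.25 without HG1.

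ADAMTS9 (chr3:64501330-64673676), a large protease of versican, ranged from 20 to 23.96 CPM at low and from 17.86 to 23.46 CPM at high glucose. The groups overlapped over most of their range, with a log2 difference of -0.13 (SE 0.0937). Of its exonic bases 2.28% lie opposite exons of ADAMTS9-AS1.

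Among the procollagen N-proteinases, ADAMTS2 (chr5:178537854-178772462), the enzyme whose loss causes the dermatosparactic form of Ehlers-Danlos syndrome, was the most abundant of the 10 at low glucose. It was at 181.5, 178.6, 175.7 and 184.5 CPM in LG1 to LG4 and at 89.43, 93.18, 95.92 and 85.77 CPM in HG1 to HG4. Every high glucose value lay well under every low glucose value. The means were 180.1 ± 3.77 and 91.08 ± 4.43 CPM (SD, n = 4), 1.98-fold lower, with a log2 difference of -0.98 (SE 0.0367). ADAMTS14 (chr10:72432262-72522197), its close relative, was at 4.001, 5.715, 5.096 and 5.827 CPM and then at 2.259, 3.188, 2.144 and 2.400 CPM. It was 2.07-fold lower, with a log2 difference of -0.82 (SE 0.137) resting on 26 to 80 reads.

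The remaining member of that trio, ADAMTS3, acts chiefly on the lymphatic growth factor VEGF-C and is outside the described set. It was named after its values were seen. ADAMTS3 went the other way, from 10.94 ± 0.651 to 14.65 ± 1.29 CPM (log2 difference 0.39, SE 0.0726, limma adjusted p = 0.00379). The ratio of CPM of ADAMTS2 to ADAMTS3 moved from 16.5 ± 0.71 to 6.26 ± 0.652 (SD, n = 4).

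Both COMP-cleaving proteases were lower. ADAMTS7 (chr15:79051548-79103806), which also acts in vascular smooth muscle, was at 20.33, 24.02, 25.73 and 25.78 CPM in LG1 to LG4 and at 11.01, 13.87, 13.44 and 12.09 CPM in HG1 to HG4. LG1 was the lowest low glucose library and still stood above all high glucose libraries, with a log2 difference of -0.88 (SE 0.0987). ADAMTS12 (chr5:33523640-33892124), its closest relative, was at 22.50, 20.37, 21.83 and 19.96 CPM and then at 7.553, 8.529, 9.073 and 10.04 CPM. It was 2.41-fold lower, a log2 difference of -1.18 (SE 0.0839).

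ADAMTS10 (chr19:8645124-8675620), mutated in Weill-Marchesani syndrome and bound to fibrillin, had the largest fold difference downwards of the 10. It was at 63.93, 77.35, 72.28 and 81.94 CPM in LG1 to LG4 and at 22.09, 26.70, 25.40 and 20.35 CPM in HG1 to HG4. LG1, the lowest low glucose library, was still well above HG2, the highest high glucose library. The means were 73.88 ± 7.72 and 23.64 ± 2.93 CPM (SD, n = 4), 3.13-fold lower, with a log2 difference of -1.61 (SE 0.107). Of all genes, 42, ADAMTS10 included, had a fall of this size or more on that log2 scale. ADAMTS6 (chr5:64444565-64777747), its paralog in the same group, was at 4.668 to 5.754 CPM at low and 4.518 to 6.577 CPM at high glucose. The ADAMTS6 groups overlapped, with a log2 difference of 0.03 (SE 0.12).

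**Figure D2:**
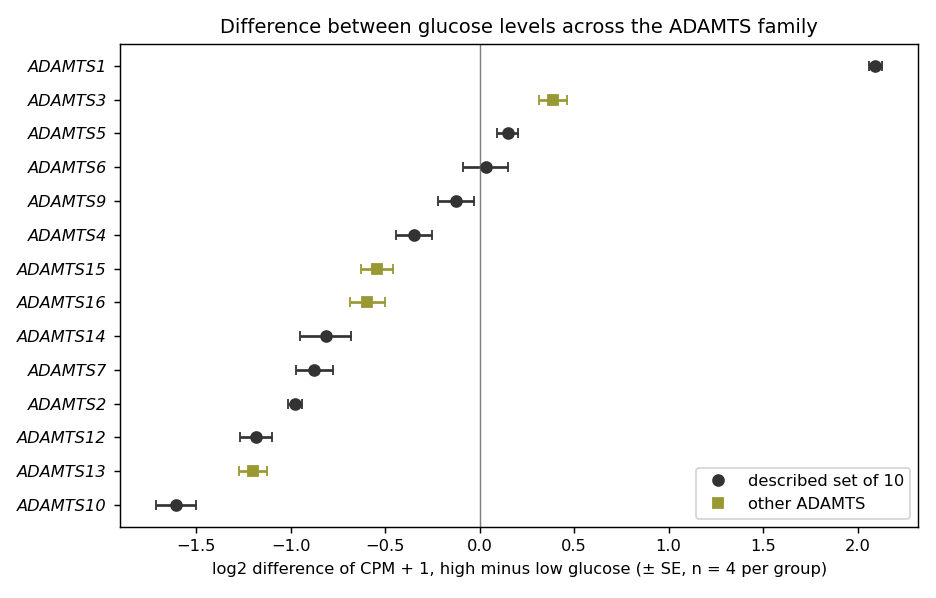
Log2 difference of CPM + 1 (high minus low glucose, x axis) with its SE for the ADAMTS genes with a mean of at least 0.5 CPM, the described 10 as black circles and other ADAMTS genes as squares. ADAMTS1 stands alone at 2.10, and the lowest is ADAMTS10 at -1.61.

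On the scale of CPM per kilobase of canonical transcript, which allows levels of different genes to be compared, the order at low glucose was ADAMTS2 (26.5), ADAMTS10 (17.4), ADAMTS5 (11.6), ADAMTS1 (10.2), ADAMTS7 (4.34), ADAMTS9 (2.99), ADAMTS12 (2.47), ADAMTS14 (0.929), ADAMTS6 (0.686) and ADAMTS4 (0.101). Of neighbors in that order, ADAMTS9 and ADAMTS12, and ADAMTS14 and ADAMTS6, had overlapping ranges. At high glucose the order was ADAMTS1 (44.3), ADAMTS2 (13.4), ADAMTS5 (12.9), ADAMTS10 (5.56), ADAMTS9 (2.74), ADAMTS7 (2.28), ADAMTS12 (1.03), ADAMTS6 (0.710), ADAMTS14 (0.449) and ADAMTS4 (0.0586). Ranges overlapped there for ADAMTS2 and ADAMTS5, ADAMTS9 and ADAMTS7, and ADAMTS12 and ADAMTS6. The level of ADAMTS4 depends on its long annotated transcript of 9777 bases.

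Summed over the 18 ADAMTS genes, the level per kilobase was nearly the same in both groups, 88.1 ± 2.54 at low and 91.5 ± 2.48 at high glucose (SD, n = 4), with ranges of 85.3 to 91.4 and 87.9 to 93.3 that overlap. Its makeup was not. ADAMTS1 supplied 11.6% ± 0.355 of the sum at low and 48.4% ± 1.99 at high glucose, and without it the sum was 77.9 ± 2.44 and 47.3 ± 2.47. ADAMTS2 went from 30.2% ± 0.834 to 14.7% ± 0.769 and ADAMTS10 from 19.7% ± 1.56 to 6.07% ± 0.728, while ADAMTS5 was at 13.2% ± 0.167 and 14.1% ± 0.769. By class, hyalectan proteases went from 36.4% ± 0.884 to 70.9% ± 1.42 of the sum, procollagen proteases from 33.2% ± 0.849 to 17.7% ± 0.683, the COMP pair from 7.73% ± 0.345 to 3.61% ± 0.242, and ADAMTS6 with ADAMTS10 from 20.5% ± 1.59 to 6.85% ± 0.619. The rise of the hyalectan class lay in ADAMTS1, with ADAMTS5 nearly unchanged. Also in that class, ADAMTS15 went from 8.1% ± 0.643 to 5.32% ± 0.673 and ADAMTS9 from 3.4% ± 0.22 to 2.99% ± 0.27. These shares follow from the values that chose the genes and carry no test.

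**Figure D3:**
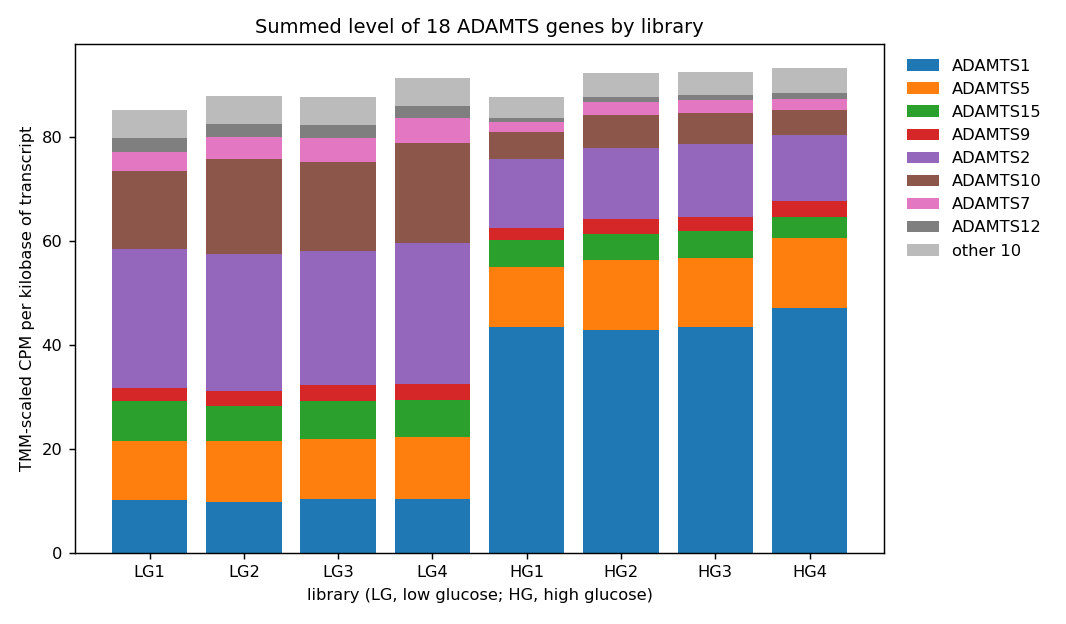
Summed level of 18 ADAMTS genes in each library (TMM-scaled CPM per kilobase of transcript), stacked by gene. The total lies between 85.3 and 93.3 in all 8 libraries, while the ADAMTS1 segment grows from about 10.2 at low to 44.3 at high glucose.

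Leaving out HG1, the library with fewer reads of long transcripts, gave log2 differences of 2.10 for ADAMTS1, -0.97 for ADAMTS2, -0.25 for ADAMTS4, 0.08 for ADAMTS6, -0.82 for ADAMTS7, -0.06 for ADAMTS9, -1.58 for ADAMTS10, -1.12 for ADAMTS12 and -0.78 for ADAMTS14. By likeness over the 8 libraries, the 3 genes of at least 5 CPM whose log2 level followed that of ADAMTS1 most closely, out of 11297, were SLC38A2 (Pearson 0.9996), TFPI2 (0.9995) and SCML1 (0.9994). These 8 points form separate groups of 4, so the value mostly reflects that difference and has no test.

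For the counts below, 22.0% of all 21059 genes were called higher and 24.8% lower. With a 1 CPM filter, 9631 of 14372 genes were called in either direction. No list was tested as a set. The lists were drawn up with earlier results of these data known, so the adjusted p-values below are descriptive. Of the other ADAMTS genes 8 were in the table, and 1 rose (ADAMTS3) and 3 fell. ADAMTS13, which cuts von Willebrand factor, went from 5.184 ± 0.453 to 1.69 ± 0.12 CPM (limma adjusted p = 2.0e-05). ADAMTS15, a protease of versican, went from 42.8 ± 2.57 to 29.17 ± 3.18 CPM (adjusted p = 0.0016) and ADAMTS16 from 3.508 ± 0.36 to 1.991 ± 0.273 CPM (adjusted p = 0.00178). ADAMTS18 and ADAMTS19 were at 0 in every library. Of 7 ADAMTS-like genes, whose products lack the protease domain, 5 fell and 0 rose, PAPLN the most, from 24.8 ± 1.54 to 8.411 ± 0.601 CPM (adjusted p = 4.5e-06). ADAMTSL5 (log2 difference -0.38, adjusted p = 0.00248) and ADAMTSL1 (-0.52, adjusted p = 0.00325) also fell. Of 10 membrane-anchored ADAM proteases with a row, 2 rose and 2 fell. ADAM17, which sheds growth factor precursors, rose (log2 difference 0.48, adjusted p = 3.2e-04), and ADAM19 (-0.44, adjusted p = 4.2e-04) and ADAM12 (-0.46, adjusted p = 0.00466) fell. Of the exonic bases of ADAM17, 30.1% lie opposite exons of IAH1, and the strand setting of the reads is unknown. Of the antisense genes and pseudogenes of the family 4 were in the table and 0 passed, with ADAMTS7P4 at 1.704 ± 0.505 and 1.114 ± 0.498 CPM (adjusted p = 0.233).

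The genes for substrates and partners were described by lists from general knowledge, also drawn up with earlier results of these data known. Their adjusted p-values are likewise descriptive. Their counts stand beside 22.0% of all genes called higher and 24.8% lower, and 9631 of 14372 called in either direction with a 1 CPM filter. Of 9 fibrillar procollagen genes, the substrates of ADAMTS2, ADAMTS3 and ADAMTS14, 7 fell and 0 rose, with a median log2 difference of -0.81 over those of at least 1 CPM, where all such genes had -0.04. COL1A2 (from 18.7 ± 0.586 to 4.96 ± 0.688 CPM, limma adjusted p = 8.2e-06), COL5A2 (from 1008 ± 21.2 to 598.7 ± 26.9 CPM, 9.3e-06) and COL1A1 (from 2145 ± 98.2 to 861.1 ± 74.8 CPM, 1.2e-05) had the smallest adjusted p-values. Of 6 hyalectan and link protein genes 1 rose and 4 fell, VCAN from 290.7 ± 7.59 to 192.1 ± 32.7 CPM (adjusted p = 0.0052), BCAN from 6.651 ± 0.501 to 1.773 ± 0.223 CPM (1.4e-05) and HAPLN3 upwards from 6.467 ± 0.635 to 9.127 ± 1.48 CPM (0.0196). HAPLN3 was not called without LG3, LG4 or HG2 (log2 difference 0.40 to 0.41, adjusted p from 0.0528 to 0.0535). ADAMTS1 and the versican gene thus differed in opposite directions. VCAN has a long transcript (12345 bases) and was lowest in HG1, and its log2 difference was -0.61, or -0.49 without HG1. Of 16 microfibril and other matrix genes 10 fell and 4 rose, LTBP1 from 310.5 ± 6.88 to 123.6 ± 7.63 CPM (1.9e-06), LTBP2 from 138.5 ± 5.6 to 82.52 ± 5.11 CPM (2.5e-05), and THBS1, the gene of thrombospondin 1, upwards from 554.7 ± 7.28 to 818.8 ± 29.3 CPM (1.3e-05).

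Among 9 inhibitor and uptake genes 2 rose and 5 fell, where 22.0% of all genes were called higher and 24.8% lower. LRP1, the endocytic receptor that clears ADAMTS4 and ADAMTS5, fell 3-fold, from 201.7 ± 6.92 to 67.23 ± 8.57 CPM (limma adjusted p = 1.3e-05). TIMP3, the tissue inhibitor of ADAMTS4 and ADAMTS5, rose from 91.97 ± 4.25 to 110.8 ± 4.98 CPM (adjusted p = 0.002), whereas TIMP2 fell from 1219 ± 5.00 to 943.5 ± 29.8 CPM (9.8e-05) and SDC4 rose from 54.23 ± 3.45 to 74.55 ± 4.38 CPM (5.5e-04). Of 6 convertase and O-fucosylation genes 2 rose and 2 fell. FURIN, whose product removes the propeptide, rose from 35.85 ± 3.73 to 62.81 ± 5.88 CPM (adjusted p = 4.0e-04). POFUT2, which adds fucose to thrombospondin repeats, rose from 43.13 ± 0.967 to 55.94 ± 3.24 CPM (adjusted p = 3.7e-04). PCSK7 fell from 38.6 ± 1.21 to 33.07 ± 0.615 CPM (adjusted p = 5.7e-04). Of the exonic bases of PCSK7, 59.2% lie opposite exons of TAGLN and ENSG00000280143, and the strand setting of the reads is unknown.

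**Figure D4:**
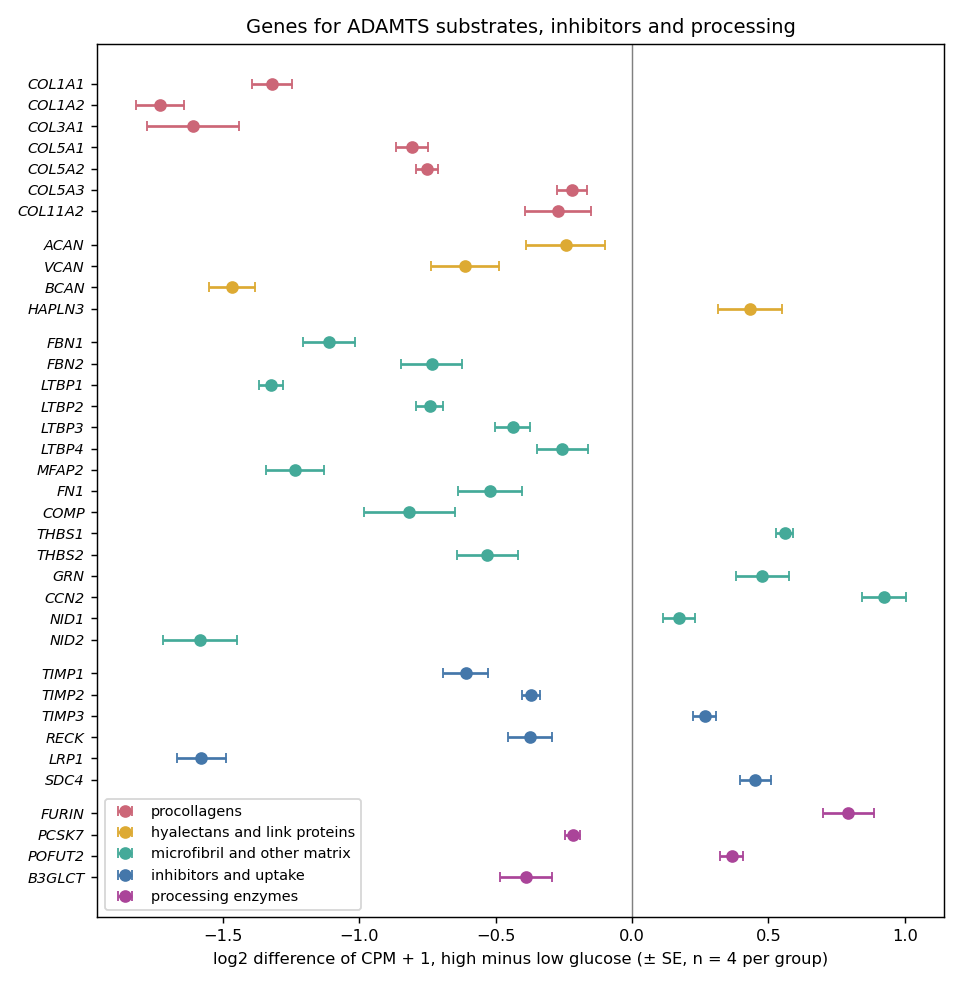
Log2 difference of CPM + 1 (high minus low glucose, x axis) with its SE for the genes of at least 1 CPM in the substrate, inhibitor and processing lists, colored by list. All plotted procollagen genes lie below 0, LRP1 lies at -1.58 and FURIN at 0.79.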

How the data were processed

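RNA sequencing of 8 libraries of the MDA-MB-157 line was analysed, 4 at low and 4 at high glucose, grouped by the labels. The authors deposited CPM, scaled with TMM factors from edgeR. The submitters' processing notes name hg38 and edgeR, whereas the methods, written first for tumors, describe hg19, so which genome build, counter and strand setting produced the table remains unknown. Of the low values, 72.5% to 74.1% were whole reads (within 0.01 read), so counts were not recovered and no count model was used.

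All 21059 genes (18 pseudoautosomal Y copies left out) were compared on log2(CPM + 1) with limma 3.58.1 in R 4.3.3 (trend, 2-sided), with Benjamini-Hochberg adjustment over all genes and a threshold of 0.05. SEs are limma's moderated values, and with 4 libraries per group they rest partly on all genes. On simulated data, 172 of 200 genes changed 2-fold were recovered and 7 unchanged genes were called. The simulation gave all genes the same fixed dispersion and held no library like HG1. Its changed genes were of at least 5 CPM at low glucose, so the recovery does not cover scarce genes such as ADAMTS4. Positions, transcript lengths and coding stretches come from GENCODE 44 on GRCh37, promoters from RefSeq.

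The members and gene lists were chosen with earlier results of these data known. The rule names all members, at most the 3 genes of at least 1 CPM with the smallest adjusted p from each list, TIMP3 and VCAN whatever their values (VCAN is also among the 3 of its list), and the 3 genes most like ADAMTS1. ADAMTS3, ADAMTS18, ADAMTS19 and the cell markers were named outside it, after their values were seen. Alternatives were another pseudocount, a 1 CPM filter, median-of-ratios scaling, a replicate block, a length correction and each library left out. The lineage and cell markers served to check the line, and their levels are also given at both glucose concentrations.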

Additional observations from a re-analysis of the deposited data

Results flagged for a closer look

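In each group of 4 libraries, the distance from the most extreme library to the next was taken as a share of the whole span, for the estimated reads and each named gene. Of 76 groups, 10 had a ratio beyond Dixon's limit, where chance gives about 1 in 20, or 3.8, and 5 of the 10 were at each glucose level. ADAMTS1 in HG4 had a ratio of 0.836 (244.5 CPM against 222.2 to 225.9 in the others), and ADAMTS5 in HG1 had 0.843 (109.9 against 127.6 to 130.9 CPM). ADAMTS6 in LG4 had 0.84 (5.754 against 4.668 to 4.842 CPM) and ADAMTS9 in LG1 0.846 (20 against 23.36 to 23.96 CPM). ADAMTS13 in HG4 had 0.871, ADAMTSL5 in HG3 0.851, TIMP2 in HG1 0.984, SDC4 in LG1 0.847 and LTBP1 in LG1 0.833. The estimated reads of LG4 had a ratio of 0.864, with 12104244 reads against 10389651 to 10622968.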

How the results depend on the processing

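Among the 10 ADAMTS genes, the number called higher was 2 in place of 1 with a 1 CPM filter, with median-of-ratios scaling (2) and with the length trend removed (2), ADAMTS5 being the added one, and it ranged from 1 to 2 when 1 library was left out (2 without HG1, where ADAMTS5 differed by 0.21). These counts describe genes selected on this contrast and test nothing. The number called lower ranged from 5 to 6, with ADAMTS4 not called without LG1, LG3, LG4 (each -0.34) or HG2 (-0.35), while under the 1 CPM filter and the length correction ADAMTS4 was not tested. Over all genes, 8899 to 10156 were called when 1 library was left out. Of 128 log2 differences of the 10 genes, 3 were flagged, for a shift beyond the spread between libraries or a change of sign. ADAMTS4 (-0.76) and ADAMTS14 (-1.02) shifted beyond the spread with a pseudocount of 0.1. ADAMTS6 only changed sign, from 0.03 to -0.07 without HG4, a shift smaller than its SE of 0.12. Of 75 listed wider genes in the table, 10 to 14 were called higher and 35 to 39 lower over all alternatives. The reported counts were 12 and 38, where 22.0% of all genes were called higher and 24.8% lower. Same-numbered libraries did not deviate together (correlations of -0.0403 to 0.0692). Such correlations cannot exclude weak effects of shared handling, so whether the numbers pair libraries is unknown. A replicate block called 8921 genes and the same 1 and 6 ADAMTS genes, with ADAMTS7P4 also called lower. Depth limits ADAMTS4, with 4 to 14 reads, most.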
